A study of Mus musculus with 12 samples.

Results

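The genes described here are 8 regulators of transcription that act in macrophages treated with interleukin 4 (IL-4), namely Irf4, Klf4, Egr2, Myc, Batf3, Kdm6b, Bhlhe40 and Bcl6. They were taken by name from the 38887 genes of each deposited table, and all 8 were among the 12846 genes with enough counts to be tested. The RNA-Seq data came from bone marrow-derived macrophages (BMMs) of wild-type (WT) and IGF2BP2 knockout (KO) mice aged 3 to 4 months, with 3 mice per group. BMMs of both genotypes had matured for 6 days in M-CSF at 50 ng/ml, the growth factor of the macrophage lineage, which all groups received. They were then left without further treatment (M0) or given 20 ng/ml IL-4 for 8 h (M2), so that there were 4 groups, WT M0, WT M2, KO M0 and KO M2, with 3 libraries in each.

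IGF2BP2 is a protein that binds mRNAs, many of them at m6A marks. KO mice carried loxP sites around exons 4 and 5 of Igf2bp2 and expressed Cre from the Lyz2 locus, which is active in myeloid cells. The WT mice were littermates without floxed alleles, of which some had Cre and others did not, and the labels do not say which. The loss of Igf2bp2 and the presence of Cre at Lyz2 cannot be told apart by these groups. Igf2bp2 had 98 ± 20.7 CPM in WT M0 and 90.8 ± 5.53 CPM in KO M0 (mean ± SD, n = 3). With IL-4 it had 211 ± 28.7 CPM in WT and 135 ± 9.54 CPM in KO. CPM are counts scaled to the total of a library. KO differed from WT by a log2 value of -0.11 in M0 (edgeR adjusted p = 0.656) and -0.65 in M2 (edgeR adjusted p = 0.0285, between 0.00459 and 0.127 when 1 library was left out, the highest without the second WT M2 library). Counts over the whole gene include its remaining exons, so that the loss of the floxed exons need not lower them. Which exons the counts came from was not tested. In KO BMMs the paper found IGF2BP2 protein, and Igf2bp2 mRNA by qPCR, to be nearly undetectable.

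Libraries of WT M0 held between 24942666 and 29832430 counts, those of KO M0 between 26568719 and 37054582. In M2 the totals were between 20011792 and 22744704 for WT and between 27347077 and 39632770 for KO. All 8 macrophage markers, among them Csf1r and Adgre1, were detected in every group, and without Lyz2 they summed to between 5042 and 5704 CPM in every library. Lyz2 itself, the site of Cre, was at 7030 to 10544 CPM in WT M0 and 22.1 to 33.2 CPM in KO M0. Of the markers of T cells Cd3e, Cd3d, Cd3g and Trbc2 were at 0 in all groups. Lck, the other marker of that list, was at 0.31 to 0.875 CPM. With IL-4 it was called lower in KO (log2 fold change -0.80, edgeR adjusted p = 0.0364) and not in WT (-0.32, edgeR adjusted p = 0.418). Of the B-cell markers Cd79b was at 4.76 to 8.85 CPM, and the others were at most 0.234 CPM.

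IL-4 binds a receptor that activates the kinases JAK1 and JAK3 and, through them, the transcription factor STAT6, which enters the nucleus and switches on a first set of genes. Part of this set encodes further regulators, which then act on genes of alternative activation such as Mrc1 and Retnla. IRF4, BATF3, EGR2, BHLHE40, MYC and KLF4 bind DNA in this second layer, whereas KDM6B removes the repressive methyl marks from lysine 27 of histone H3. BCL6 is a repressor that can occupy sites of STAT type.

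The sequences near the start sites are shown for Batf3 and Bcl6 because they were the genes of the set with motifs of STAT type in the window examined, and because IL-4 changed the one gene and was not seen to change the other. RefSeq windows (GRCm38.p6) of 250 bases before and 50 bases after a start were at hand for 5 of the 8 genes, with 1 window each for Irf4, Klf4 and Batf3, 5 for Egr2 and 2 for Bcl6. Capitals mark TTC and GAA 3 bases apart, a motif that reads the same on both strands. The Batf3 stretch lies at chr1:191098164-191098203 on the plus strand, and its motif begins 239 bases before the RefSeq start. The gene is placed below at chr1:191097847-191108945, so that the stretch lies inside it and the RefSeq start is not its first base. The stretches of Bcl6 lie on the minus strand, at chr16:23988942-23988990 for the first start, with the motif 118 bases before it, and at chr16:23981343-23981471 for the second start, with motifs 168, 122 and 88 bases before it.
Batf3: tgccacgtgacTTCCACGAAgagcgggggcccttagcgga
Bcl6, first start: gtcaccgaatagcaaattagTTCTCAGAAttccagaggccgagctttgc
Bcl6, second start: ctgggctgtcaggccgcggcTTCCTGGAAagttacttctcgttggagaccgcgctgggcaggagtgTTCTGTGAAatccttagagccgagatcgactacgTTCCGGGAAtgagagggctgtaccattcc

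These letters are a description and do not show that a factor bound there. TTC and GAA 3 bases apart occurred in 8.3% of all 32851 windows. The spacing of 4 bases, which STAT6 prefers, occurred in 6.95% of all windows and in 0 windows of the 5 genes. CACGTG, the E-box read by MYC and BHLHE40, was found in 7.15% of all windows, and in those of Klf4, Batf3, the first start of Bcl6 and 1 of the 5 windows of Egr2. In Batf3 it stands just before the capitals, without overlapping them. The EGR motif GCGTGGGCG was found in 0.612% of all windows and in 0 of the windows of these genes.

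IL-4 raised 7 of the 8 regulators in WT and the same 7 in KO macrophages, while Bcl6 did not pass the test in either. The 7 genes fell into a group that rose more than 10-fold in both genotypes (Egr2, Bhlhe40, Batf3 and Irf4) and a group that rose between 1.57-fold and 2.19-fold (Myc, Klf4 and Kdm6b). Among all genes tested, 50% were called in WT in either direction and 24.9% were called higher, and in KO these shares were 52.8% and 26.8%. The median log2 fold change of the 8 genes was 2.32 in WT and 2.16 in KO, where the medians of all genes were -0.008 and 0.014. Calls rest on edgeR's quasi-likelihood test with 1 coefficient per group and on an adjusted p under 0.05. In bulk RNA a change in the share of cells that express a gene and a change in the RNA per cell cannot be told apart. Libraries of a group came from different mice. The test treated the 12 libraries as independent, with an estimate of the spread shared by the 4 groups. It made no use of a pairing of M0 and M2 libraries by mouse. An exact permutation test of 3 against 3 libraries cannot give a p below 0.1.

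**Figure D1:**
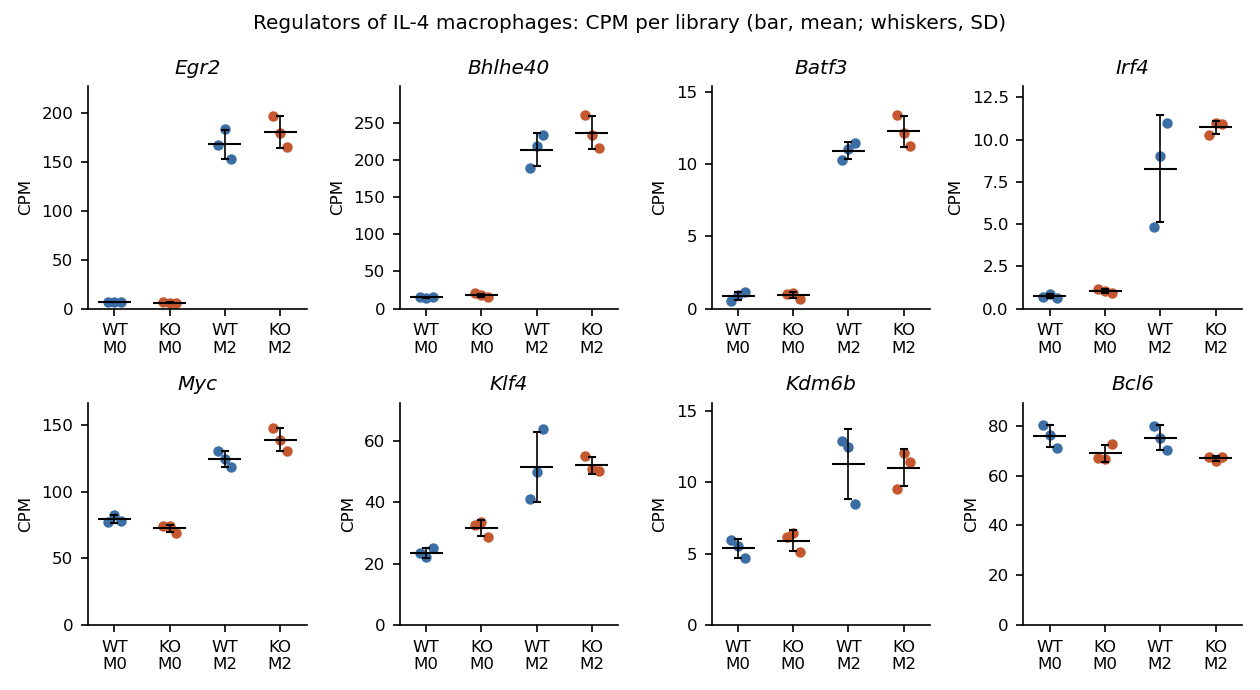
Counts scaled to the normalized library total (CPM, linear axes from 0) of the 8 regulators in the 12 libraries, with 1 point per library, blue for WT and orange for KO, a bar at the mean and whiskers of 1 SD (n = 3). Points of M2 lie above those of M0 in both genotypes in every panel but that of Bcl6, and the third WT M2 library has the highest Irf4 and Klf4 and the lowest Kdm6b of its group.

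Egr2, a zinc finger factor of the early growth response family, had the largest fold change of the set. Its values were 6.57, 6.64 and 6.97 CPM in WT M0 and 167, 183 and 153 CPM in WT M2. In KO they were 6.61, 5.97 and 5.37 CPM in M0 and 197, 179 and 165 CPM in M2. All M2 values were more than 20 times above all M0 values, and the ranges of WT and KO overlapped in both states. IL-4 changed it by 4.64 on the log2 scale (SE 0.10, edgeR adjusted p = 5.27e-12) in WT and 4.92 (SE 0.10, edgeR adjusted p = 2.83e-12) in KO, which placed Egr2 at rank 68 and rank 63 from the top among 12846 genes. Egr1, its paralog and an immediate-early gene, went the other way, with a log2 fold change of -0.39 in WT (edgeR adjusted p = 0.0335) and -0.66 in KO (edgeR adjusted p = 0.000795). The WT call of Egr1 was kept in 9 of the 12 fits that each left out 1 library, with an adjusted p of 0.108 without the second WT M2 library, and was lost in 3 of 9 other alternatives (DESeq2, thinned counts and only the 6 libraries compared). Of the corepressors that EGR proteins recruit, Nab2 rose by 0.46 in WT and 0.65 in KO, whereas Nab1 had log2 fold changes of -0.66 and -0.71, all called with edgeR. Egr3 was at most 0.234 CPM in every library and was not tested. The gene lies on the plus strand at chr10:67535475-67542188 (GRCm38).

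Irf4, an interferon regulatory factor that binds DNA mostly with a partner, and Batf3, an AP-1 factor of the leucine zipper type that can be such a partner, were the least abundant of the strongly induced genes. For Irf4 the WT values were 0.679, 0.854 and 0.623 CPM in M0 and 4.82, 9.02 and 11 CPM in M2. In KO they were 1.14, 1.03 and 0.94 CPM in M0 and 10.3, 11 and 10.9 CPM in M2. The WT M2 libraries were spread more than 2-fold, with the first library lowest, while those of KO M2 lay close together. On the log2 scale Irf4 rose by 3.50 (SE 0.28, edgeR adjusted p = 3.89e-07) in WT and 3.38 (SE 0.25, edgeR adjusted p = 2.08e-07) in KO.

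Batf3 had 0.55, 0.953 and 1.13 CPM in WT M0 and 10.3, 11.1 and 11.5 CPM in WT M2. In KO it had 0.992, 1.11 and 0.691 CPM in M0 and 13.4, 12.2 and 11.3 CPM in M2. The M0 values rest on 17 to 42 counts per library, which limits their precision, but no M0 library came near an M2 library. The rise of Batf3 was 3.65 on the log2 scale (SE 0.20, edgeR adjusted p = 1.19e-08) in WT and 3.72 (SE 0.19, edgeR adjusted p = 6.5e-09) in KO. Its paralog Batf rose by 0.89 and 1.71, and Batf2 by 1.18 in each genotype. Jun, a partner of the BATF proteins, rose by 0.23 in both genotypes, whereas Junb passed the edgeR test only in KO, with 0.37 (adjusted p = 0.00124), and its difference between the genotypes was called in 3 of 8 alternatives, with the lowest adjusted p for the mouse as a block (0.39, edgeR adjusted p = 0.00661). Irf8, a paralog of Irf4 that binds DNA with some of the same partners, had 137 ± 4.96 CPM in WT M0 and 155 ± 12.9 CPM in WT M2, and it rose in KO by 0.54 (edgeR adjusted p = 4.29e-05). In WT it was called in 1 of 9 alternatives, with the mouse as a block (edgeR adjusted p = 0.0071). Its difference between the genotypes was called in 2 of 8 alternatives, among them the block (0.36, edgeR adjusted p = 0.00937). Spi1, which encodes PU.1 and recruits both IRF4 and IRF8, fell in WT by 0.23 on the log2 scale (edgeR adjusted p = 0.00417). In KO it had 322 ± 10.3 CPM in M0 and 329 ± 26.3 CPM in M2 and was not called. Its difference between the genotypes was called with the mouse as a block (0.26, edgeR adjusted p = 0.0416) but not with 1 coefficient per group. Irf4 lies at chr13:30749226-30766976 and Batf3 at chr1:191097847-191108945 (GRCm38), both on the plus strand.

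Irf4, Batf3 and Zbtb46 are also used in dendritic cells, so the markers of that cell type were read beside them. Zbtb46 was at 0.194 to 0.404 CPM in M0 and 1.38 to 2.11 CPM in M2, with log2 fold changes of 2.54 in WT and 2.45 in KO. The other 6 markers (Flt3, Cd209a, Xcr1, Clec9a, Ccr7 and Itgae) were at most 0.258 CPM in every library. In M0 the 7 markers summed to 0.259 to 0.723 CPM for WT and 0.424 to 0.551 CPM for KO, and in M2 to 1.77 to 2.42 and 1.73 to 1.96 CPM. Xcr1 was at 0 in WT M2 and KO M2, Flt3 and Ccr7 at 0 in WT M0 and Cd209a at 0 in KO M0. In M2 Flt3 reached 0.153 CPM in WT and 0.108 CPM in KO, Ccr7 0.0454 and 0.151 CPM, and Cd209a 0.0454 and 0.0377 CPM, each with at least 1 library at 0 in both genotypes.

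Bhlhe40, a basic helix-loop-helix repressor that supports the proliferation of IL-4 macrophages, had the highest mean level of the set in M2. Its values were 15.4, 14.4 and 15.3 CPM in WT M0 and 189, 219 and 233 CPM in WT M2. In KO it had 20.3, 17.7 and 15.8 CPM in M0 and 260, 233 and 216 CPM in M2. All 3 KO M0 libraries lay above all WT M0 libraries, by little in the case of the third, whereas the M2 ranges overlapped. Bhlhe40 rose by 3.83 on the log2 scale (SE 0.11, edgeR adjusted p = 3.13e-11) in WT and 3.73 (SE 0.11, edgeR adjusted p = 3.52e-11) in KO. Bhlhe41, its closest paralog, had log2 fold changes of -0.33 in WT (edgeR adjusted p = 0.0273, kept in 8 of the 12 fits without 1 library and 0.125 without the second WT M2 library) and -0.66 in KO (edgeR adjusted p = 0.000151). Bhlhe40 lies on the plus strand at chr6:108660629-108666925, and an antisense gene that overlaps it (0610040F04Rik) was at most 0.0511 CPM.

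Myc, a basic helix-loop-helix factor that dimerizes with MAX and drives growth and ribosome production, was already high in M0. The WT libraries had 77.5, 82.7 and 78.3 CPM in M0 and 131, 125 and 119 CPM in M2. In KO the values were 74.1, 74.4 and 69.2 CPM in M0 and 148, 139 and 131 CPM in M2. KO libraries lay below all WT libraries in M0, and in M2 the lowest KO value and the highest WT value met at 131 CPM. With IL-4 it rose by 0.66 on the log2 scale (SE 0.06, edgeR adjusted p = 1.03e-06) in WT and 0.94 (SE 0.06, edgeR adjusted p = 3e-08) in KO. Mycl, a paralog, all but disappeared, from 8.67 ± 1.84 to 0.116 ± 0.034 CPM in WT and from 4.34 ± 0.659 to 0.12 ± 0.0573 CPM in KO (mean ± SD, n = 3). Mycn was not tested, as it was at most 0.053 CPM.

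Among the partners and competitors of MYC, Max rose by a log2 fold change of 0.33 in WT and 0.42 in KO. Mxd4, which takes the place of MYC at MAX, rose by 1.97 and 1.44, and Mnt, of the same kind, by 0.55 and 0.16. Mxd1 and Mxd3 were lower with IL-4, at -0.73 and -1.82 in WT and -0.53 and -1.51 in KO, and all of these passed the edgeR test. The KO call of Mnt was lost in 4 of 9 other alternatives (no filter, thinned counts and limma on TPM with either pseudocount), with an adjusted p of up to 0.356. Myc lies at chr15:61985391-61990374 on the plus strand.

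Klf4, a Krüppel-like zinc finger factor that acts with STAT6, had 23.4, 22 and 25.2 CPM in WT M0 and 41.1, 49.7 and 63.8 CPM in WT M2. The KO libraries had 32.5, 33.7 and 28.6 CPM in M0 and 55.2, 50.7 and 50.1 CPM in M2. In M0 all KO values were above all WT values, and in M2 all KO values lay within the WT range. Klf4 rose by 1.13 on the log2 scale (SE 0.13, edgeR adjusted p = 1.15e-05) in WT and 0.72 (SE 0.12, edgeR adjusted p = 0.000326) in KO. Of its paralogs, Klf2 had a log2 fold change of -0.64 in KO (edgeR adjusted p = 0.0457, kept in 5 of the 12 fits without 1 library and 0.147 without the second KO M0 library, and lost with DESeq2 at 0.0968), and Klf6 one of -0.23 in KO (edgeR adjusted p = 0.00997). In WT neither was called, with log2 fold changes of -0.14 for Klf2 (edgeR adjusted p = 0.696) and 0.13 for Klf6 (edgeR adjusted p = 0.132), and the difference between the genotypes had an edgeR adjusted p of 0.515 for Klf2 and 0.0589 for Klf6. With the mouse as a block both differences were called, at an edgeR adjusted p of 0.0298 for each, and that of Klf6 was called in 3 of 8 alternatives in all. Klf4 lies on the minus strand at chr4:55527143-55532466.

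Kdm6b, the histone demethylase, had 5.98, 5.52 and 4.67 CPM in WT M0 and 12.9, 12.5 and 8.49 CPM in WT M2. In KO it had 6.17, 6.47 and 5.09 CPM in M0 and 9.57, 12.1 and 11.4 CPM in M2. M2 values were above all M0 values, and KO and WT overlapped in both states. The rise was 1.07 on the log2 scale (SE 0.17, edgeR adjusted p = 0.000157) in WT and 0.90 (SE 0.16, edgeR adjusted p = 0.000362) in KO. Ezh2, the methyltransferase that sets the mark which KDM6B removes, had log2 fold changes of -0.63 and -0.98, and Suz12, a subunit of the same complex, -0.25 and -0.50. Kdm6a, which carries out the same reaction as Kdm6b, fell in KO by 0.33 (edgeR adjusted p = 0.00257). In WT it had 46.1 ± 3.36 CPM in M0 and 42.9 ± 0.878 CPM in M2 and was not called. Its difference between the genotypes was not called either, with 0 of 8 alternatives calling it. Kdm6b lies on the minus strand at chr11:69398508-69413675, and its antisense gene Kdm6bos was at most 0.0515 CPM.

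Bcl6, the zinc finger repressor, stayed within a narrow band. It had 80.2, 76.5 and 71.2 CPM in WT M0 and 80.1, 75.3 and 70.2 CPM in WT M2. In KO the values were 67.1, 66.8 and 72.8 CPM in M0 and 67.3, 65.9 and 67.6 CPM in M2. M0 and M2 overlapped in both genotypes. The log2 fold change was -0.02 in WT (95% interval -0.15 to 0.12, edgeR adjusted p = 0.857) and -0.04 in KO (95% interval -0.17 to 0.09, edgeR adjusted p = 0.583). Its relative Bcl6b, at 0.799 ± 0.0849 CPM in WT M0, rose by 1.09 in WT and 2.11 in KO. Of its corepressors, Hdac3 was slightly lower, at -0.19 and -0.13. All of these passed the edgeR test, but of the 12 fits without 1 library 4 kept the call of Hdac3 in KO, with an adjusted p of 0.18 without the third KO M0 library, and it was also lost with no filter and with thinned counts. The call of Bcl6b in WT was kept in 11 of the 12 fits, with 0.0666 without the third WT M2 library, and lost with limma on TPM. Bcl6 lies on the minus strand at chr16:23965052-23988852 and overlaps Gm37419 on the other strand. Whether reads were counted by strand is not given in the sources used here.

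**Figure D2:**
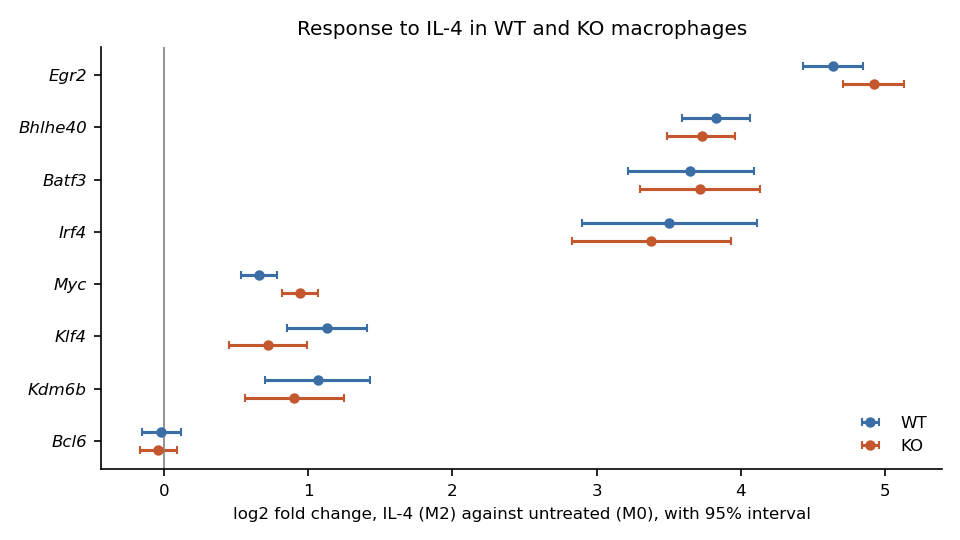
The log2 fold change of each regulator between M2 and M0 (horizontal axis) in WT (blue) and KO (orange), with 95% intervals from the edgeR model (n = 3 libraries per group). Egr2, Bhlhe40, Batf3 and Irf4 lie between 3.38 and 4.92, Myc, Klf4 and Kdm6b between 0.66 and 1.13, and Bcl6 at -0.02 and -0.04.

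Levels of different genes were compared as TPM, which takes gene length into account. In M0 the order from high to low was Myc, Bcl6, Klf4, Bhlhe40, Egr2, Batf3, Kdm6b and Irf4 in both genotypes. Myc was at 72.8 ± 2.81 TPM in WT and 65.4 ± 3.02 TPM in KO (mean ± SD, n = 3), and Irf4 at 0.28 ± 0.0557 and 0.403 ± 0.0451 TPM. Of the neighbours in this order, the ranges of Batf3 and Kdm6b overlapped and all others were separate. In WT M2, Bhlhe40 (129 ± 16.7 TPM), Egr2 (118 ± 12.6 TPM) and Myc (109 ± 5.49 TPM) led, with ranges that overlapped between neighbours. They were followed by Bcl6 (37.7 ± 2.49 TPM), Klf4 (30.5 ± 7.03 TPM) and Batf3 (30.1 ± 1.55 TPM), of which Klf4 overlapped with both others while Bcl6 (35.2 to 40.2 TPM) and Batf3 (28.4 to 31.5 TPM) were separate. Kdm6b (3.89 ± 0.954 TPM) and Irf4 (3.09 ± 1.18 TPM) came last, with ranges that overlapped. In KO M2 the same 3 genes led, at 143 ± 10.9, 130 ± 12.1 and 118 ± 5.04 TPM for Bhlhe40, Egr2 and Myc, again with overlap between neighbours. Batf3 and Bcl6 shared the next place at 33 TPM, before Klf4 (30.1 ± 0.868 TPM), and Irf4 (3.95 ± 0.278 TPM) stood above Kdm6b (3.27 ± 0.379 TPM). The range of Klf4 (29.2 to 30.9 TPM) overlapped with that of Batf3 (30.6 to 34.7 TPM) but not with that of Bcl6 (31.9 to 33.7 TPM). The 8 genes together summed to 140 to 150 TPM in WT M0 and 134 to 147 TPM in KO M0. In WT M2 the sum was 456 to 465 TPM, and in KO M2 it was 460 to 513 TPM.

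Because M0 and M2 libraries of the same number and genotype correlated in their deviations from the group means, though weakly for the second WT pair, the change with IL-4 was also read as a ratio within each number. Myc had log2 ratios of 0.76, 0.60 and 0.60 in the WT pairs against 1.00, 0.90 and 0.92 in the KO pairs, so that all 3 KO ratios were above all WT ratios. Those of Egr2 were 4.67, 4.78 and 4.45 for WT and 4.90, 4.91 and 4.95 for KO, which also did not overlap. Ratios of KO and WT were thus separate for 2 of the 8 genes (25%), where 31.2% of the 12594 tested genes with counts in all libraries were separate. For Irf4 the 3 WT ratios ran from 2.83 to 4.14 and enclosed those of KO, from 3.17 to 3.54. Bcl6 ratios were between -0.02 and 0.00 in WT and between -0.11 and 0.00 in KO.

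**Figure D3:**
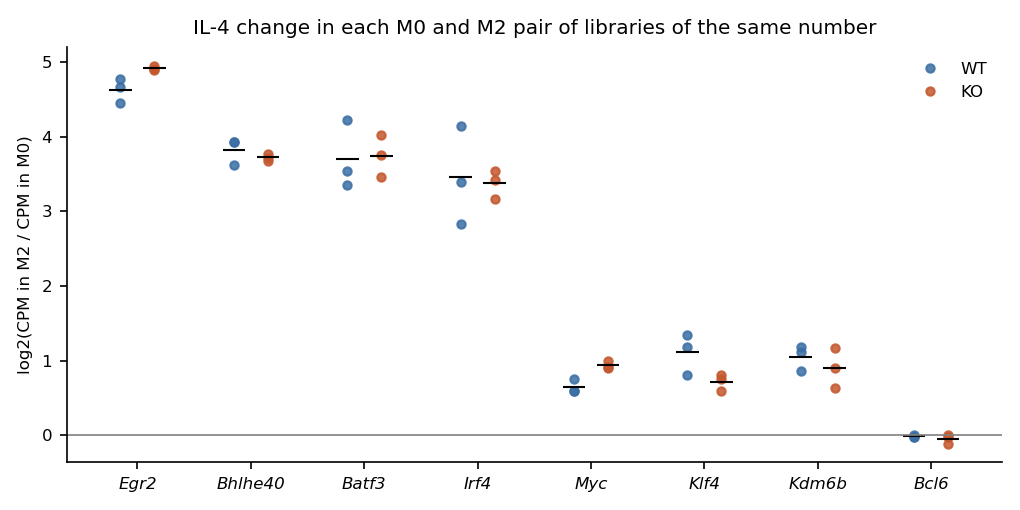
The log2 ratio of CPM in M2 to CPM in M0 (vertical axis) within each pair of libraries of the same number, for the 8 regulators, with 1 point per pair, a bar at the mean, WT in blue and KO in orange. KO and WT points are separate for Egr2 and Myc, as for 31.2% of all genes with counts in all libraries, and those of Irf4 are spread most widely in WT.

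In untreated macrophages the comparison of KO with WT called 0 of the 8 regulators with edgeR, where 9.78% of all genes were called. Without adjustment 4 of them had a p under 0.05 (Klf4, Myc, Bhlhe40 and Bcl6), DESeq2 called 1, and limma on TPM called 0. KO and WT groups did not overlap for Irf4, Klf4, Myc and Bhlhe40, which is 4 of 8 genes, where 31.1% of all genes did not overlap. Klf4 came closest, with a log2 difference of 0.43 (SE 0.13, 95% interval 0.15 to 0.71, edgeR adjusted p = 0.0557). It was higher in 3 of 3 KO libraries than in any WT library. The adjusted p of Klf4 ranged from 0.0122 to 0.185 over the alternatives. It was 0.0152 with DESeq2, 0.0203 with no filter on low counts, 0.0475 with all libraries thinned to the depth of the smallest and 0.0208 with only the 6 M0 libraries. It was 0.0202 without the first and 0.0122 without the third WT M2 library, although neither is an M0 library. The cause was not tested.

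For the other regulators the log2 difference in M0 was 0.51 for Irf4 (95% interval -0.20 to 1.23), 0.25 for Bhlhe40 (0.01 to 0.49), 0.13 for Kdm6b (-0.24 to 0.49) and 0.10 for Batf3 (-0.43 to 0.64). It was -0.13 for Myc (-0.26 to -0.01), -0.14 for Bcl6 (-0.27 to -0.01) and -0.17 for Egr2 (-0.41 to 0.07). Their edgeR adjusted p lay between 0.163 and 0.842. The interval of Irf4 therefore leaves room for a difference of more than 2-fold, whereas those of Myc and Bcl6 do not reach 0.3 in size. Neutrophil markers, which summed to 6.7 to 16.5 CPM in WT M0 and 4.74 to 4.85 CPM in KO M0, and stromal markers, at 30.6 to 54.8 and 8.38 to 31.1 CPM, had lower sums in KO, with overlapping ranges for the stromal ones. Of 9 neutrophil markers Ngp and S100a9 were called lower in M0, with Ly6g at 0 in all libraries, and 0 of the 5 stromal markers tested were called. Their part in these differences was not tested.

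In IL-4-treated macrophages 0 of the 8 regulators were called between KO and WT with edgeR, with DESeq2 and with limma, where edgeR called 2.68% of all genes, and Myc and Bcl6 had an unadjusted p under 0.05. The groups were separate for Bcl6 only, 1 of 8 genes, where 24.8% of all genes were separate. Bcl6 had a log2 difference of -0.17 (95% interval -0.30 to -0.04, edgeR adjusted p = 0.149) and Myc one of 0.15 (95% interval 0.03 to 0.28, edgeR adjusted p = 0.159). Irf4 differed by 0.38 (95% interval -0.08 to 0.85, edgeR adjusted p = 0.335), a value that depended on single WT libraries. It was 0.11 without the first WT M2 library and 0.65 without the third. Batf3 (0.17), Bhlhe40 (0.15), Egr2 (0.11), Klf4 (0.01) and Kdm6b (-0.03) had edgeR adjusted p between 0.404 and 0.968. The intervals of these 5 genes, of which that of Batf3 reached highest at 0.50 and that of Kdm6b lowest at -0.37, do not hold differences of the size of the IL-4 response of Batf3, Bhlhe40 or Egr2. The stromal markers summed to 33.5 to 61.2 CPM in WT M2 and 9.29 to 27.2 CPM in KO M2, which did not overlap, with 0 of the 5 tested called and a median log2 difference of -1.21. Neutrophil markers summed to 4.04 to 9.59 CPM in WT M2 and 4.09 to 5.1 CPM in KO M2. The part of these cells in the M2 differences was not tested.

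**Figure D4:**
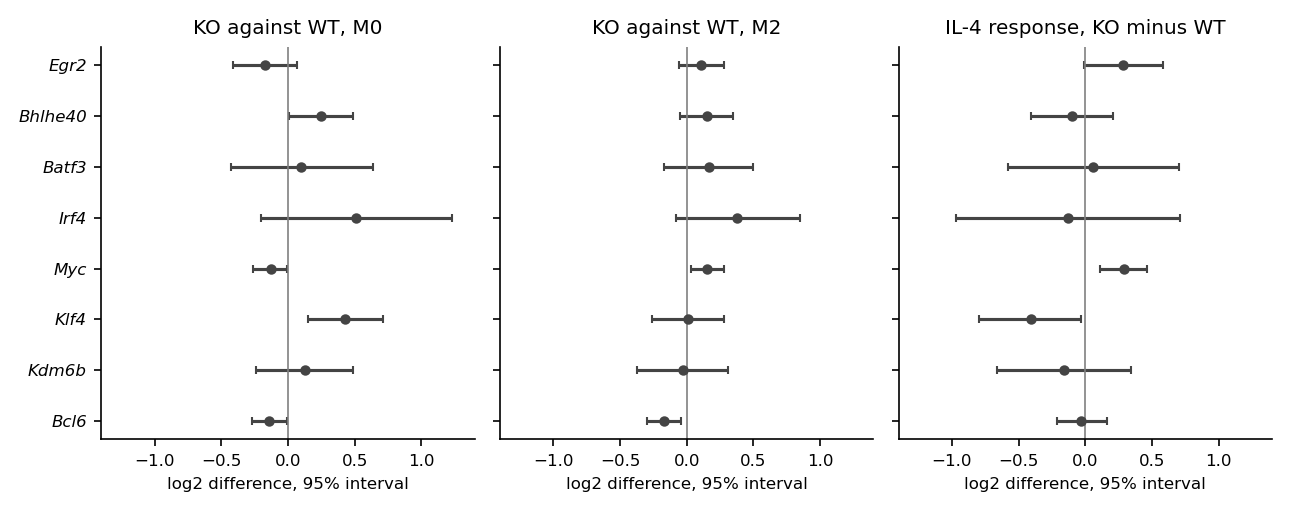
The log2 difference between KO and WT in M0 (left) and M2 (middle), and the difference between their IL-4 responses (right), for the 8 regulators, as points with 95% intervals from the edgeR model (n = 3 libraries per group). In M0, Klf4 at 0.43 lies farthest from 0 relative to its interval, and Irf4 has the widest interval in all 3 panels.

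The test of the difference between the IL-4 responses asked whether the regulators rose by a different amount in KO. It called 0 of 8 with edgeR and with limma, where edgeR called 3.24% of all genes, and 2 had an unadjusted p under 0.05 (Klf4 and Myc). The log2 difference of Myc, KO minus WT, was 0.29 (SE 0.08, 95% interval 0.11 to 0.46, edgeR adjusted p = 0.0788). With the mouse as a block the difference was 0.28 (edgeR adjusted p = 0.0284), and with DESeq2 it was 0.28 (adjusted p = 0.0349), so that the call depended on the model. That the numbers mark a shared mouse rests on these correlations, of which that of the second WT pair was 0.103 and fell under 0.1 with lower prior counts in log2 CPM. Its adjusted p ranged from 0.0284 to 0.209 over the alternatives. The difference of Klf4 was -0.41 (95% interval -0.80 to -0.03, edgeR adjusted p = 0.251) and was called under 0 of the alternatives. This value was -0.55 without the first WT M2 library (edgeR adjusted p = 0.0632) and -0.23 without the third. Egr2 differed by 0.28 (95% interval -0.01 to 0.58, edgeR adjusted p = 0.3). For Irf4, Kdm6b, Bhlhe40, Bcl6 and Batf3 the differences lay between -0.16 and 0.06, with the widest interval for Irf4, from -0.97 to 0.71.

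Other genes of the pathway were read in lists that hold none of the 8 regulators. These lists were chosen with earlier results of these data known. Their counts stand beside the shares over all genes, of which IL-4 called 24.9% higher and 50% in either direction in WT, and 26.8% and 52.8% in KO. Of 19 other regulators of macrophages that were tested, 9 rose and 4 fell with IL-4 in WT and 8 rose and 6 fell in KO, with median log2 fold changes of 0.18 and 0.09. Among the largest changes were those of Nr1h3, the oxysterol receptor LXR alpha (-1.60 in WT, -1.54 in KO), Jund, an AP-1 subunit (1.47 and 1.53), and Ppargc1b, a coactivator of mitochondrial genes (1.13 and 1.09). Stat6 itself had 285 ± 4.59 CPM in WT M0 and 276 ± 8.05 CPM in WT M2 and fell in KO, from 310 ± 4.26 to 256 ± 7 CPM. The median of the 8 regulators was therefore above that of the wider group in both genotypes, with no test made between them.

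Of 18 genes of the IL-4 receptor and JAK-STAT pathway, 9 rose and 5 fell in WT (77.8% called, beside 50% of all genes) and 6 rose and 6 fell in KO (66.7%, beside 52.8%). The feedback inhibitors Cish (6.73 in WT, 7.0 in KO) and Socs1 (5.13 and 5.58) rose most, more than any of the 8 regulators. Il13ra1, a chain of the second type of IL-4 receptor, was lower with log2 fold changes of -1.90 and -1.60, Socs3 was lower at -2.21 and -0.84, and Jak2 was higher at 1.30 and 1.58. Of 16 effector genes of alternative activation, 15 rose in each genotype, with median log2 fold changes of 4.70 in WT and 4.97 in KO, above the value of each of the 8 regulators. Among the largest rises was that of Arg1, by 9.04 in WT and 8.54 in KO. It went from 8.71 ± 3.01 to 4545 ± 459 CPM in WT and from 11.3 ± 1.58 to 4218 ± 170 CPM in KO. Those of Retnla, Pdcd1lg2 and Mgl2 came from M0 levels near 0. Leaving out 1 M0 library moved their fold change by more than 1.5 times in at least 1 genotype, so their levels are given in place of fold changes. Retnla, a secreted protein of the resistin family, was at most 0.117 CPM in every M0 library, with 102 ± 43.9 CPM in WT M2 and 108 ± 11.7 CPM in KO M2 (mean ± SD, n = 3). Pdcd1lg2, a ligand of PD-1, was at most 0.0647 CPM in M0 and had 10.5 ± 1.49 CPM in WT M2 and 13 ± 1.55 CPM in KO M2. Mgl2, a lectin, was at most 0.935 CPM in M0 and had 237 ± 106 and 231 ± 12 CPM in M2. The effectors Ccl17 and Alox15 were not tested for low counts.

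**Figure D5:**
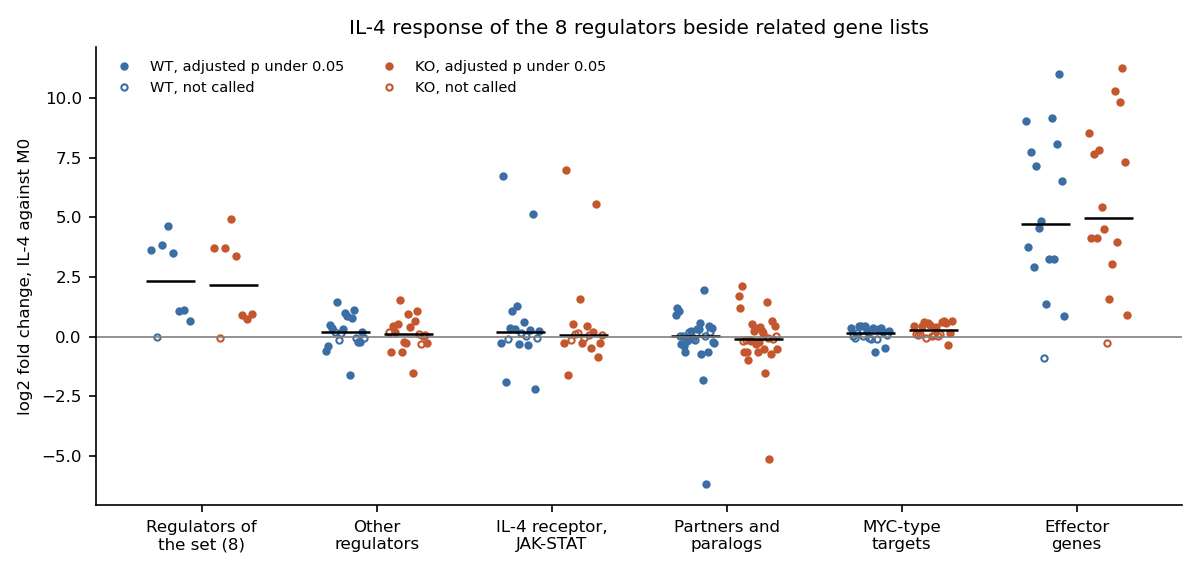
The log2 fold change with IL-4 (vertical axis) of each tested gene in the set of 8 regulators and in 5 related lists, in WT (blue) and KO (orange), with 1 point per gene, filled where the edgeR adjusted p was under 0.05, and a bar at the median. Medians are 2.32 and 2.16 for the 8 regulators, 4.70 and 4.97 for the effector genes, and between -0.11 and 0.29 for the other lists.

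Of 20 genes of the type that MYC activates, in ribosome production, polyamine and one-carbon metabolism, 10 rose and 2 fell with IL-4 in WT, and 11 rose and 1 fell in KO. The median log2 fold change was 0.17 in WT and 0.29 in KO. Ncl and Fbl, 2 nucleolar proteins, rose by 0.45 and 0.44 in WT, whereas Odc1, the first enzyme of polyamine synthesis, and Shmt1, an enzyme of one-carbon metabolism, had -0.65 and -0.46. In KO the largest changes were those of Rrp12 (0.67), Srm (0.65), Gnl3 (0.62) and Ppan (0.61), of which Rrp12, Gnl3 and Ppan act in ribosome production and Srm in the synthesis of spermidine.

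Of the partners and paralogs of the 8 regulators, 30 were tested. With IL-4, 10 rose and 10 fell in WT, and 12 rose and 13 fell in KO, with medians of 0.03 and -0.11. Mycl (-6.19 in WT, -5.15 in KO) had the largest change of any gene in it.

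The lists were also read between the genotypes. In M0, where 9.78% of all genes were called, 8 of the 20 genes of MYC type were lower in KO and 1 was higher, with a median of -0.10, beside the value of -0.13 for Myc itself, which was not called. Odc1 (-0.55, edgeR adjusted p = 0.000455) and Nop58 (-0.32, edgeR adjusted p = 0.00497), a nucleolar protein, kept their call in all 12 fits without 1 library. Polr1b (-0.35), a subunit of RNA polymerase I, was kept in 9 and Ppan (-0.30) in 11. Over the 12 fits between 2 and 8 genes of the list were lower. Of the other 19 regulators 3 were higher and 1 was lower in KO M0. Klf6 (0.42) kept its call in all 12 fits, Klf2 (1.06) in 8, Maf (0.43) in 7 and Cebpb (-0.48) in 10, so that between 1 and 6 of this list were higher and 0 to 2 lower over the 12 fits. For Klf2, Maf and Polr1b the adjusted p was highest without the second WT M0 library, at 0.0946, 0.1 and 0.0868, as for Ppan at 0.0535, and for Cebpb without the third KO M0 library, at 0.0828. Polr1b also lost its call with limma on TPM, and Cebpb with only the 6 libraries compared.

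Of the receptor and JAK-STAT genes 4 were higher and 2 were lower in KO M0, with Socs3 at -0.89, Jak2 at -0.50, Irs2 at 0.77 and Pik3cd at 0.31. The calls of Socs3 and Jak2 were kept in all 12 fits without 1 library, that of Pik3cd in 11 and that of Irs2 in 8, with an adjusted p of 0.105 for Irs2 without the second WT M0 library and of 0.0614 for Pik3cd without the second KO M0 library. Irs2 and Pik3cd also lost the call with limma on TPM. Il2rg (0.28), the common gamma chain of the receptor, was kept in 7 of the 12 fits, with 0.132 without the second KO M0 library, and was lost with only the 6 libraries compared. Over the 12 fits between 1 and 4 genes of the list were higher, and 2 were lower in each. Of the effectors, of which 1 to 3 were lower over the 12 fits, Mrc1, the mannose receptor, was lower in KO M0 (262 ± 41.5 CPM in WT, 145 ± 12.6 CPM in KO, edgeR adjusted p = 0.000522), and 15 were not called. Of the partners and paralogs, 5 were higher and 3 lower, and over the 12 fits without 1 library 4 to 7 were higher and 1 to 5 lower. Mycl (-1.0), Mxd4 (0.65) and Bhlhe41 (0.62) passed in all 12 fits without 1 library, with Mycl lost on log2(TPM + 0.1), and Klf2 is given above. Junb (-0.28) was kept in 6 of the 12 fits, with an adjusted p of 0.149 without the third KO M0 library. Nab2 (-0.29) was kept in 7, with 0.129 without the first KO M0 library, and was also lost with thinned counts and with only the 6 libraries compared.

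In M2, where 2.68% of all genes were called, 0 of the 19 other regulators, 0 of the 18 receptor and JAK-STAT genes and 0 of the 16 effectors were called with edgeR. Without adjustment 6, 4 and 1 of them had a p under 0.05, DESeq2 called 4, 0 and 0, and limma called 0 in each. Over the 12 fits without 1 library 0 to 3 of the other regulators were higher and 0 to 1 lower. Of the receptor and JAK-STAT genes 0 to 1 were lower. Of the MYC-type genes Srm was higher in KO (0.31, edgeR adjusted p = 0.0165), and of the partners Ezh2 (-0.38, edgeR adjusted p = 0.0114) and Suz12 (-0.21, edgeR adjusted p = 0.0382) were lower. The call was kept in 9 of the 12 fits without 1 library for Srm and Ezh2 and in 3 for Suz12, with the highest adjusted p, 0.084, 0.0695 and 0.158, without the second WT M2 library for all 3. Suz12 also lost its call in 4 of 9 other alternatives.

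The genes whose levels ran most closely with each regulator were sought among those with a mean of at least 5 CPM, as Pearson's r of log2 CPM over the 12 libraries. Since the libraries of M0 and M2 stand apart for 7 of the 8, these values mainly describe the size of the IL-4 change relative to the spread. For Egr2 they were Rab3il1 (0.9994) and Hbegf (0.9991). For Bhlhe40 they were Znrf2 (0.9980), Itpripl1 (0.9977) and Plk3 (0.9977), and for Batf3 Retnla (0.9962), B3gnt7 (0.9961) and Gda (0.9947).
Irf4 ran most closely with Cpped1 (0.9937), Slc46a3 (0.9911) and Fbxo33 (0.9911), and Myc with Actr1b (0.9912), Imp4 (0.9904) and Pdgfa (0.9902). Mxd4, from the list of MYC competitors, was nearest to Klf4 (0.9815), before Cd74 (0.9797) and Gm5150 (0.9752), and Adam8 (0.9798), Maml2 (0.9771) and Plekho2 (0.9757) to Kdm6b. Bcl6, without an IL-4 change, had lower values, with Malat1 (0.9492), Crk (0.9243) and Simc1 (0.8896). Within the set, Bhlhe40 and Egr2 were most alike (0.996), and Bcl6 had r between -0.442 and -0.074 with the other 7.

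When the group means were taken out, so that only the variation between libraries of a group remained, other genes came first. They were Siah2 (0.976) for Klf4, Rtel1 (0.967) for Irf4, Slc23a2 (0.964) for Kdm6b, Vav1 (0.95) for Bcl6, Tmem159 (0.949) for Bhlhe40, Hps4 (0.941) for Myc, Eif2b2 (0.937) for Batf3 and Nxn (0.926) for Egr2. The next places of Irf4 were held by Brip1 and Rad54b (both 0.962), which like Rtel1 act in DNA repair and replication. These are the highest correlations among all genes of at least 5 CPM, each over 12 libraries, and carry no test.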

How the data were processed

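RNA-Seq was performed on poly(A) RNA of 12 BMM libraries as single reads of 75 nt. According to the study's methods and the submitters' processing notes, reads were checked with FastQC 0.11.2 and processed with Grape-nf 1.1.3 under Nextflow 20.10.0 on GRCm38/mm10. The counting tool and its strand setting are not given in the sources used here. The authors deposited 1 table per library with expected counts of 38887 genes, in which a read that matches several genes is divided among them, and TPM. The deposited tables also hold effective gene lengths in nucleotides and the SD of each estimated count. The authors deposited 4 DESeq2 (1.40.2) tables with fold changes and p-values of their own comparisons, of which the gene symbols alone were used. Symbols were found for 37570 genes, 21000 of them in these tables and 16570 in GENCODE M21, which also gave coordinates. Promoter windows came from RefSeq.

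Groups were taken from the labels. Totals per library were 20011792 to 39632770 counts. Expected counts were rounded, low genes were removed with filterByExpr (all 8 regulators were above its cutoff of 0.353 CPM in every M0 library), and 12846 genes were fitted with edgeR 4.0.16 in R 4.3.3 (TMM factors, a coefficient for each of the 4 groups, quasi-likelihood test, biological coefficient of variation 8.08%). Each p was adjusted over all genes by the Benjamini-Hochberg method and called under 0.05. SE and 95% intervals were derived from the F statistic of each fold change. Alternatives were DESeq2 1.42.0, RLE factors, no filter, a filter of 1 CPM in 6 libraries, limma 3.58.1 on log2(TPM + 1) and log2(TPM + 0.1), thinning to the smallest library, only the 6 libraries compared, a replicate block and leaving out each library in turn. Scripts were tested on simulated data. Summaries used Python 3.11.15, numpy 2.4.6, scipy 1.17.1 and pandas 2.3.3.

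M0 and M2 libraries of the same number correlated in their deviations from the group means with r of 0.331, 0.103 and 0.364 in WT and 0.166, 0.16 and 0.209 in KO, all above 0.1 with a prior count of 2 in log2 CPM. These numbers were therefore taken to pair libraries by mouse within a genotype. With other prior counts, chosen after seeing the data, the second WT pair had 0.0865 (0.5), 0.0927 (1), 0.125 (5) and 0.149 (10), and the other 5 pairs stayed above 0.1, so that the pairing by mouse depends on this setting. For WT and KO libraries of 1 number r was -0.0684 to 0.0403.

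The 8 regulators, the gene lists and the markers were chosen with earlier results of these data known. All 8 regulators were named, from each list up to 4 called genes with the largest change per comparison as well as the partners and paralogs of the regulator described, and for each regulator the 3 genes of highest Pearson's r among those with at least 5 CPM on average. Some genes that this rule names are not reported here.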

Additional observations from a re-analysis of the deposited data

Results flagged for a closer look

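Of 97 tested genes of the related lists, each counted once, 12 passed edgeR's test of whether KO and WT responded differently to IL-4. This is 12.4% at an adjusted p under 0.05, where 3.24% of all genes were called. The lists were chosen with earlier results of these data known, so the shares are not an independent comparison. The log2 difference, KO minus WT, was 1.38 for Socs3, a feedback inhibitor of cytokine signalling, which fell with IL-4 by less in KO. It was 0.68 for Odc1 and 0.41 for Srm, enzymes of polyamine synthesis, and -0.39 for Mnt, a competitor of MYC. These 4 kept the call in all 12 fits that left out 1 library, and Mnt lost it with limma on TPM. Cebpb, a leucine zipper factor of myeloid cells, had 0.82 and lost the call in 1 fit, without the second WT M2 library (edgeR adjusted p = 0.0511).

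For the other 7 genes the call was lost in 6 to 10 of the 12 fits and in 1 to 3 of 8 other alternatives. Batf, the paralog of Batf3, had a difference of 0.82 (edgeR adjusted p = 0.0965 without the second KO M0 library), and Rrp9, a factor of ribosome production, one of 0.34 (0.0989 without the second WT M0 library). Maf differed by -0.60, Mitf by -0.44, Ezh2 by -0.35 and Stat6 by -0.23, with adjusted p of 0.132, 0.0954, 0.0971 and 0.129 without the second WT M2 library. Mrc1 had a difference of 0.69, with 0.0689 without the second WT M0 library. Maf rose with IL-4 in WT (0.32) and fell in KO by 0.28, both calls being lost in some fits without 1 library.

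With the mouse as a block, 1003 of all genes were called in place of 416, and 26 of the 97 list genes, among them all 12 above. Of the effectors 5 then had a positive difference, KO minus WT, in place of 1. The added ones were Chil3 (1.19, edgeR adjusted p = 0.0042), Clec10a (0.84, 0.01), Slc7a2 (0.78, 0.0215) and F13a1 (0.64, 0.0374). These values compare responses and not levels, and 0 of the 16 effectors were called between KO and WT in M2. The mean of F13a1 was lower with IL-4 in both genotypes, from 5.79 to 3.15 CPM in WT and from 7.55 to 6.31 CPM in KO. Of the other regulators 3 had a positive and 5 a negative difference in place of 1 and 3, and of the partners and paralogs 4 and 6 in place of 1 and 2. The difference was positive for 5 of the MYC-type genes in place of 3. Among the receptor and JAK-STAT genes it was positive for 2 and negative for 1, in place of 1 and 1. Of the 8 regulators the block called Myc (0.28, edgeR adjusted p = 0.0284).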

How the results depend on the processing

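The 7 IL-4 calls in each genotype held under all alternatives and all 12 fits without 1 library. Of 832 values of the 8 regulators under an alternative, 803 kept direction and call, 0 lost a call, 8 gained one and 21 changed sign, the latter with sizes of at most 0.19 and adjusted p of at least 0.588. In M0 the number of regulators that differed between KO and WT was 1 (Klf4) in place of 0 with DESeq2, with no filter, with thinned counts and with only the 6 libraries, and 0 to 1 without 1 library. For the difference of the responses it was 1 (Myc) with DESeq2 and with the replicate block by mouse. The block changed no other call of the 8. With limma the Irf4 difference was 0.19 on log2(TPM + 1) and 0.01 on log2(TPM + 0.1), in place of -0.13. Without 1 library, the log2 change of Bcl6 with IL-4 ranged from -0.06 to 0.03 in WT and -0.06 to 0.00 in KO, that of KO against WT from -0.15 to 0.31 for Batf3 in M0, and from -0.13 to 0.20 for Klf4 and -0.20 to 0.08 for Kdm6b in M2. The difference of the responses ranged from -0.41 to 0.13 for Irf4, -0.15 to 0.32 for Batf3 and -0.07 to 0.02 for Bcl6. The cause of these changes was not tested. Over all genes, KO against WT gave 461 to 1548 calls in M0 in place of 1256 and 25 to 761 in M2 in place of 344, where DESeq2 gave 1548 and 702. The difference of the responses gave 113 to 1003 in place of 416, with 1003 under the mouse block. Low counts limit Irf4 and Batf3 in M0, with 16 to 42 counts per library.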
